A study of Mus musculus with 15 samples.

Results

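Islets of mice with a rodent IAPP transgene (rIAPP) were compared with islets of wild-type mice (WT), 3 libraries against 3 of the 15 in the series. The members were the libraries named for the rodent transgene and the wild-type libraries without human CAST. The assay was RNA-seq of whole islets, unsorted, from FVB/NJ mice aged 9 to 10 weeks. In rIAPP mice, rodent IAPP was expressed from a transgene under the insulin II promoter, so the agent was meant for beta cells. The series also holds islets with human IAPP under the same promoter (hIAPP), islets with human CAST under an insulin promoter (hCAST) and islets with both human transgenes (hIAPP-hCAST), with 3 libraries each. These 3 groups are used here only to place the rIAPP values. The labels name no treatment, and they do not say which founder line, litter or colony the mice came from. The numbers in the titles of rIAPP libraries lie in another range than those of WT, and whatever those ranges stand for cannot be told apart from the transgene. Nothing in the labels says that the libraries of a group came from separate animals, so p-values measure the spread between these libraries, which may be technical.

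IAPP, islet amyloid polypeptide or amylin, is a peptide hormone that beta cells pack into the insulin granules and release together with insulin. The human peptide can form amyloid fibrils, whereas the rodent peptide carries prolines that keep it from doing so, and a rodent transgene is therefore commonly used to raise the load of IAPP without amyloid. Both peptides are made from precursors that pass through the endoplasmic reticulum and are cut by the prohormone convertases PC1/3 and PC2, encoded by Pcsk1 and Pcsk2.

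The libraries differed in how many of their reads fell on 3 entries rich in ribosomal RNA sequence, Rn45s, Lars2 and Mir6236. These entries took 1.99, 67.7 and 11.8% of the counts in rIAPP and 9.40, 94.3 and 68.9% in WT, and were left out before scaling. That left 35067021, 9510502 and 30199765 counts in rIAPP and 34418809, 1667190 and 8796210 in WT, so WT 2 was the shallowest library. All levels below are TMM-scaled counts relative to these other counts (CPM), which compare libraries within a gene and not genes with each other. Across genes, log CPM of rIAPP libraries correlated pairwise at 0.994 to 0.997 and of WT libraries at 0.977 to 0.992 (genes are not independent replicates). Insulin, glucagon, somatostatin and pancreatic polypeptide were abundant in every library, as befits islets. Markers of exocrine and other tissue were present too, and the shares of some differed between these rIAPP and WT libraries. The acinar list took 12.6, 16.8 and 13.2% of the other counts in rIAPP and 8.43, 4.73 and 2.00% in WT, a complete separation (exact two-sided permutation test, p = 0.1, the smallest that 3 against 3 can give). That share also varied widely within the other groups, at 8.14 to 15.8% in hIAPP, 1.32 to 16.4% in hIAPP-hCAST and 5.43 to 11.2% in hCAST. Insulin genes took 7.06, 5.34 and 7.18% in rIAPP and 15.8, 16.3 and 16.1% in WT (same exact permutation test, p = 0.1). In bulk islets, fewer cells of a type and less RNA per cell cannot be told apart.

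**Figure D1:**
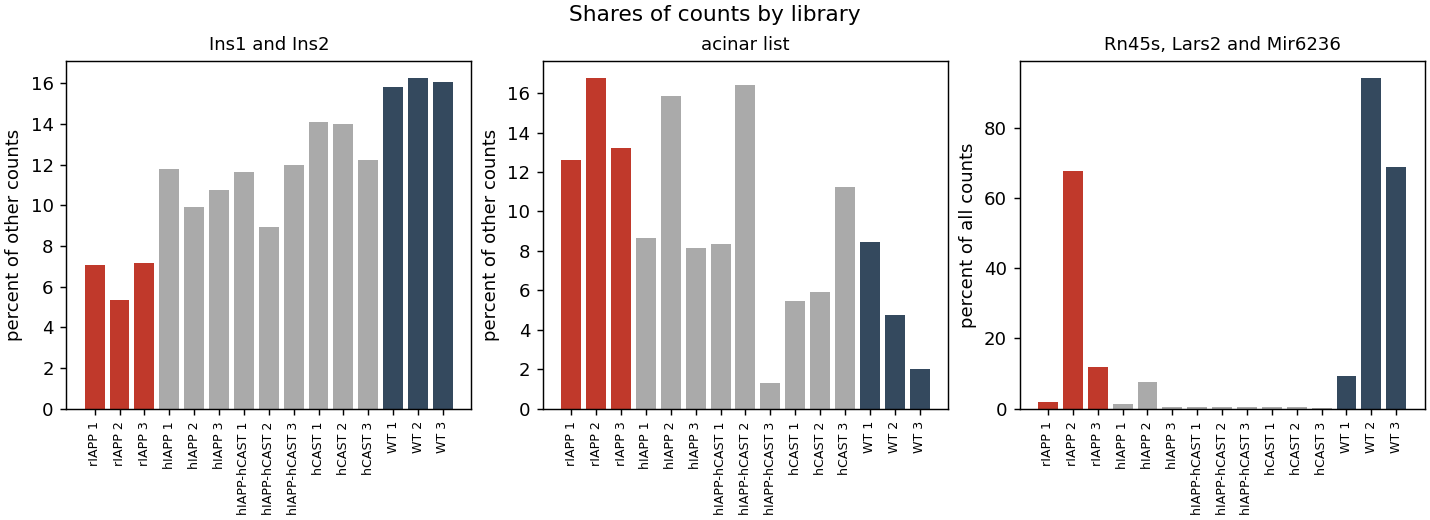
Bars give, for each of the 15 libraries, the percent of counts outside Rn45s, Lars2 and Mir6236 on both insulin genes (left) and on the 30 acinar genes (middle), and the percent of all counts on those 3 entries (right). The rIAPP bars are the lowest for insulin (5.34 to 7.18%), against 15.8 to 16.3% in WT, while the entries rich in ribosomal RNA were highest in WT 2, WT 3 and rIAPP 2.

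Of 24060 entries in the count table, 15595 were tested and 3599 (23.1%) were called changed at a Benjamini-Hochberg adjusted p below 0.05 in edgeR's quasi-likelihood test. The rIAPP islets had 1664 genes higher (10.7%) and 1935 lower (12.4%) than WT, and the median log2 fold change of all genes was 0.01. At least 2-fold changes were more often rises than falls, with 624 genes higher and 346 lower. The 3 values of rIAPP lay wholly above or below those of WT for 6324 genes (40.6%). Without the 3 libraries richest in ribosomal RNA (WT 2, WT 3 and rIAPP 2) WT is left with 1 library, assumed to vary like the other groups, and 1462 genes were called, 651 higher and 811 lower. Against hIAPP islets, a contrast in which WT does not enter, 2018 genes (12.9%) were called, 832 higher (5.34%) and 1186 lower (7.61%). Both comparisons share the 3 rIAPP libraries. In the deposited FPKM, whose column totals include the reads rich in ribosomal RNA, the median of all genes lay 0.80 higher in rIAPP on the log2 scale, so changes there are relative to that shift. After the FPKM columns were rescaled without those entries, the split was 2328 higher and 848 lower, against 1664 and 1935 from counts.

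**Figure D2:**
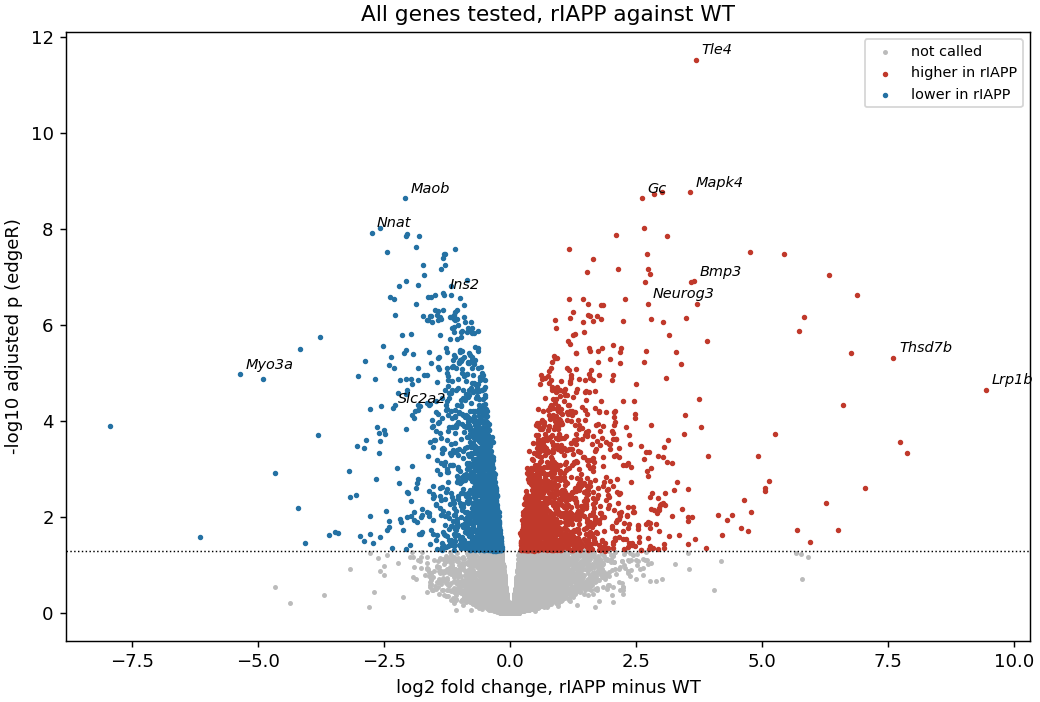
Each point is a gene, with the log2 fold change of rIAPP over WT on the horizontal axis and the negative log10 of the adjusted p on the vertical axis; the dotted line marks an adjusted p of 0.05. Tle4 has the lowest adjusted p (2.93e-12), and the insulin genes, Nnat and Maob lie among the falls.

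The insulin mRNAs fell to well under their WT levels, while the count on mouse Iapp did not pass the test. Ins1 was measured at 29664, 22038 and 32651 CPM in rIAPP and at 78181, 74959 and 74813 CPM in WT. The groups lay far apart, with rIAPP at 37.0% of the WT mean (log2 fold change −1.43 ± 0.13 SE, adjusted p = 7.73e-07). Ins2 had 38286, 32073 and 37187 CPM in rIAPP against 91363, 95911 and 81829 CPM in WT, or 40% of the WT mean (−1.32 ± 0.11, adjusted p = 2.3e-07). Ins1 and Ins2 are near-identical copies, so the split of reads between them is uncertain, but both fell. They were also lower than in hIAPP islets, by a log2 of −0.90 for Ins1 and −0.61 for Ins2.

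Iapp had 50382, 56392 and 54087 CPM in rIAPP and 34526, 62459 and 33854 CPM in WT. WT 2, the shallowest library, was the highest of all 6, and the groups overlapped (log2 fold change 0.30 ± 0.17, adjusted p = 0.221). Without WT 2 the difference was 0.65 with an adjusted p of 8.0e-05, and with hCAST islets in place of WT it was likewise 0.65 (adjusted p = 0.0113). Iapp was higher than in hIAPP islets by 0.67 (adjusted p = 0.0136). How many reads of the rodent transgene fell on the mouse Iapp entry was not tested, so its count is not a measure of the transgene. Cast, mouse calpastatin, had 27.4, 25.4 and 24.5 CPM in rIAPP and 28.6, 30.9 and 30.7 CPM in WT (−0.21 ± 0.08, adjusted p = 0.0595).

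The hormones of the other islet cells differed by smaller amounts. Gcg, glucagon, had 26542, 30102 and 23894 CPM in rIAPP against 23685, 21377 and 20494 CPM in WT and Sst, somatostatin, 1845, 1754 and 1913 CPM against 2118, 2318 and 2334 CPM. Both pairs of groups were separate, but close. Gcg was 0.30 higher (adjusted p = 0.0363) and Sst 0.30 lower (log2 fold change −0.30, adjusted p = 0.0433), and both calls were lost without WT 2, without WT 3, without rIAPP 1, without the 3 libraries rich in ribosomal RNA, with acinar share as a covariate and with hCAST in place of WT, among others. Ppy, pancreatic polypeptide, overlapped between the groups (−0.27 ± 0.31, adjusted p = 0.587).

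**Figure D3:**
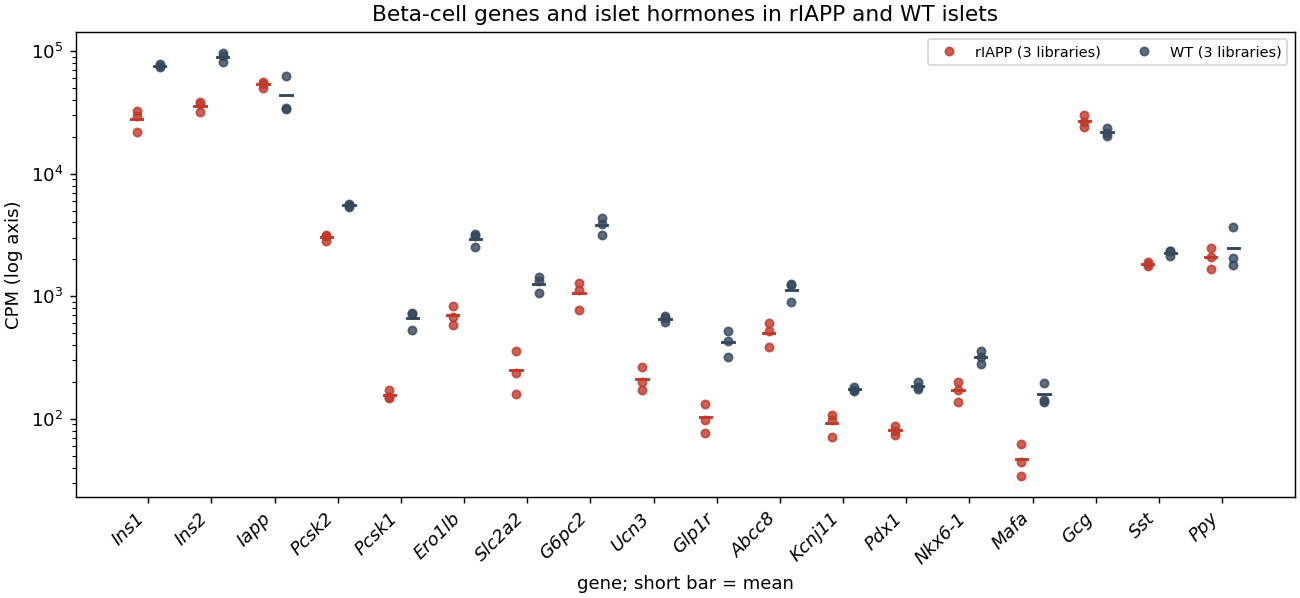
Points are the CPM of single libraries on a log axis, rIAPP left and WT right of each gene, and short bars are means of 3. The rIAPP points of Ins1, Ins2, Pcsk1, Ero1lb, Slc2a2, G6pc2, Ucn3, Glp1r, Pdx1 and Mafa all lie under the WT points, Iapp overlaps through WT 2, and Gcg, Sst and Ppy stay close to WT.

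Promoter sequences are shown for genes at the centre of these changes, Ins1, Pcsk1 and Slc2a2, and for the mouse Iapp gene. The Iapp count, which may hold reads of the transgene, did not pass the test with all libraries. Each line is a stretch of 300 bases around the gene start in RefSeq (GRCm38.p6, plus strand, 5′ to 3′), at chr19:52264047-52264346 for Ins1, chr6:142298175-142298474 for Iapp, chr13:75089607-75089906 for Pcsk1 and chr3:28697653-28697952 for Slc2a2. Of 5 genes looked for, 4 were matched; Ins2 is named only. Capitals mark the letters CATCTG, an E-box that NEUROD1 with its partners can bind, and TAAT, the core bound by homeodomain factors such as PDX1 and NKX6-1, each on either strand (CAGATG and ATTA when read on the printed strand).
Ins1: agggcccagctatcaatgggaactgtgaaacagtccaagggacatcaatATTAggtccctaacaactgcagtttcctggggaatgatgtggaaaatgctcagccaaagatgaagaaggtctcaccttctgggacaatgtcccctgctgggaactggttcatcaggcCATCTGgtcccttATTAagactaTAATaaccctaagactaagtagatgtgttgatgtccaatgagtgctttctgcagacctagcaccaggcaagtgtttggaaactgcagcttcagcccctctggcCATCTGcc
Iapp: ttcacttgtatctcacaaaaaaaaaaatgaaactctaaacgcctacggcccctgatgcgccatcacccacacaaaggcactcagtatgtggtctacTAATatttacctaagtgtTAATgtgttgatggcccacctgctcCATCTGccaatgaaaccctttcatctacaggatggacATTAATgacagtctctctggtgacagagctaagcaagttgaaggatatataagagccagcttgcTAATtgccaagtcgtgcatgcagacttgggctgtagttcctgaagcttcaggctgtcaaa
Pcsk1: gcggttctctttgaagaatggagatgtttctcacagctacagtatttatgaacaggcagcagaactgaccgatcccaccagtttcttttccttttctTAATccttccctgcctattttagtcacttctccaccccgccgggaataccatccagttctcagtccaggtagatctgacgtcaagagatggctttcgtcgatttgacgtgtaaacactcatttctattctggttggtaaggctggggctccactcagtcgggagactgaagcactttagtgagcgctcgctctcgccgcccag
Slc2a2: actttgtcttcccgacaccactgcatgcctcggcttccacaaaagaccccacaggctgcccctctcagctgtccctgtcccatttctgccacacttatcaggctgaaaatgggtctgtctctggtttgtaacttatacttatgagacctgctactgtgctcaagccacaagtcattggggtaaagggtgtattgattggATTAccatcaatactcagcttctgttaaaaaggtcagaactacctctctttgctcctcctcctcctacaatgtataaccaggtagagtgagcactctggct
The Ins1 stretch holds CATCTG at 2 places and TAAT at 3, Iapp holds them at 1 and 5, and Pcsk1 and Slc2a2 hold TAAT at 1 place and CATCTG at 0. The pair of motifs overlapped each other nowhere, although TAAT matches on opposite strands overlap in Iapp. Over all 32851 promoters of the same length, CATCTG stood in 17.2% and TAAT in 58.0%. Among genes lower in rIAPP the shares were 11.1 and 40.2%, among genes higher 14.8 and 45%, and among all tested genes 12.2 and 43%. A match is a description of the letters, not of binding.

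Of 9 genes listed for prohormone processing (folding, cleavage and zinc loading, with an inhibitor among them), 6 were lower and 0 higher, with a median log2 fold change of −0.87. Pcsk1, which encodes the convertase PC1/3, had 151, 148 and 173 CPM in rIAPP and 736, 531 and 719 CPM in WT. The highest rIAPP library stayed far under the lowest WT library (−2.08 ± 0.13, adjusted p = 1.39e-08). Pcsk2, the convertase PC2, fell less, to 3115, 2814 and 3138 CPM in rIAPP against 5608, 5549 and 5383 CPM in WT (−0.87 ± 0.08). Ero1lb, an oxidase of the endoplasmic reticulum that helps to form the disulfide bonds of proinsulin, had 680, 579 and 838 CPM in rIAPP and 3208, 2540 and 3101 CPM in WT (−2.08 ± 0.16). Slc30a8, the zinc transporter of the insulin granule, fell by 1.22 and Prss53, a serine protease gene, fell by 2.38 on the log2 scale. Pcsk1n, the peptide inhibitor of PC1/3, was 0.27 lower, a call lost without rIAPP 2, without rIAPP 3 and with hCAST in place of WT. Among these genes 5 were also lower than in hIAPP islets, Pcsk1 by a log2 fold change of −1.5.

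Of 11 granins and granule membrane proteins, 4 were lower and 0 higher (median −0.22). Sytl4, granuphilin, which holds granules at the plasma membrane, had 219, 154 and 177 CPM in rIAPP and 770, 877 and 731 CPM in WT (−2.11 ± 0.19, adjusted p = 3.81e-06). The granins Scg2 (−1.03) and Scg3 (−0.76) fell, with no overlap between the groups. Vgf, a secreted granin-like precursor, had 6.81, 5.97 and 7.51 CPM in rIAPP and 19.3, 15.7 and 23.6 CPM in WT (−1.57 ± 0.14).

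Of 8 genes listed for glucose sensing in beta cells, 6 were lower and 1 higher (median −1.11). Slc2a2, the glucose transporter GLUT2, had 235, 160 and 358 CPM in rIAPP and 1324, 1054 and 1427 CPM in WT, at 19.8% of the WT mean. No rIAPP library came near the lowest WT library (−2.34 ± 0.27, adjusted p = 5.29e-05). G6pc2, a glucose-6-phosphatase subunit of islets that opposes glucokinase, had 1117, 776 and 1291 CPM in rIAPP and 3886, 4338 and 3162 CPM in WT (−1.84 ± 0.19). Ucn3, urocortin 3, a peptide of mature beta cells, had 199, 171 and 263 CPM against 691, 613 and 667 CPM in WT (−1.64 ± 0.13). Pcx, pyruvate carboxylase, and Pfkfb2, which sets the level of fructose 2,6-bisphosphate, fell by 1.09 and 1.12. Glud1, glutamate dehydrogenase, was the one higher (0.40, adjusted p = 0.011), a call lost with acinar share as a covariate, with hCAST in place of WT and without the 3 libraries rich in ribosomal RNA.

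Of 21 receptors on islet cells 12 were lower and 2 higher (median −0.62). Glp1r, the GLP-1 receptor, had 98.2, 77.0 and 133 CPM in rIAPP and 433, 320 and 518 CPM in WT (−2.05 ± 0.21, adjusted p = 2.21e-05). The other incretin receptor, Gipr, had 36.7, 28.9 and 47.1 CPM in rIAPP and 70.8, 83.1 and 82.1 CPM in WT (−1.03 ± 0.15). Both were separate from WT without overlap. The fatty acid receptors Ffar1 (−1.91) and Ffar3 (−1.83), the adrenoceptor Adra2a (−1.62), which inhibits insulin release, and the adenosine receptor Adora1 (−1.44) fell as well. Against hIAPP, 10 of the 21 were lower.

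Ion channels of the beta cell moved in both directions, with 5 of 22 lower and 4 higher (median −0.19). Both subunits of the ATP-sensitive potassium channel fell. Abcc8, the sulfonylurea receptor, had 516, 383 and 605 CPM in rIAPP and 1239, 899 and 1263 CPM in WT (−1.18 ± 0.15), and Kcnj11, its pore, 97.8, 71.1 and 108 CPM in rIAPP and 183, 173 and 169 CPM in WT (−0.92 ± 0.11). Trpm5, a cation channel opened by calcium, fell most, to 41.0, 24.8 and 51.8 CPM in rIAPP against 252, 230 and 200 CPM in WT (−2.51 ± 0.31). Kcnma1, the large-conductance potassium channel, was 0.46 lower, a call lost with hCAST in place of WT and without the 3 libraries rich in ribosomal RNA. Kcnh6 (0.84) and the sodium channel Scn9a (0.53) rose. Over all 73 tested potassium channel subunits 21 were higher and 11 lower (median 0.21), with 13 higher without rIAPP 1, without WT 1 or without WT 3. Kcnj3, a channel subunit opened by G proteins, had 17.0, 18.9 and 17.4 CPM in rIAPP and 2.96, 1.26 and 2.66 CPM in WT (2.70 ± 0.18). Kcnj12, an inward rectifier, went the other way, with 1.59, 1.6 and 1.42 CPM in rIAPP against 27, 18.3 and 32.7 CPM in WT (−4.17 ± 0.36). Among the others, Kcnc4 (3.47) and Kcnj8 (3.02), a subunit found in vascular muscle, rose.

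The fusion machinery of granules had 10 of 25 genes lower and 3 higher (median −0.13), with 4 lower and 2 higher without the 3 libraries rich in ribosomal RNA. Exph5 (−1.55), an effector of RAB27A, and Cadps (−1.29), which primes granules, fell most, with Cplx2 (−0.66) and Rims2 (−0.39). Cadps2, the paralog of Cadps, rose to 30.3, 33.8 and 28.2 CPM in rIAPP against 16.2, 15.7 and 16 CPM in WT (0.93 ± 0.11). Of 15 genes of calcium handling, 6 were lower and 4 higher. The calcium pumps of the endoplasmic reticulum fell, Atp2a2 to 972, 892 and 1078 CPM in rIAPP against 2201, 1937 and 2021 CPM in WT (−1.07 ± 0.11) and Atp2a3 by 0.87, and so did the calcium sensor Stim2 (−0.66). The release channels Itpr1 (0.55), Ryr2 (2.05) and Ryr3 (1.53) rose. The calls of Ryr2 and Ryr3 were lost without WT 1, which left 1 of 4 rises.

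Of 20 tested transcription factors of beta cells 12 were lower, beside a share of 12.4% over all genes tested, and 2 were higher (median −0.43). Pdx1, the homeodomain activator of the insulin genes, had 79.0, 73.9 and 88.0 CPM in rIAPP and 176, 201 and 180 CPM in WT. The groups were separate, and rIAPP averaged 43.3% of the WT mean (−1.19 ± 0.12, adjusted p = 1.9e-06). Nkx6-1 had 201, 137 and 173 CPM in rIAPP and 317, 280 and 359 CPM in WT (−0.91 ± 0.13). Mafa, an activator of insulin genes in mature beta cells, had 44.0, 34.4 and 62.9 CPM in rIAPP and 142, 138 and 196 CPM in WT (−1.75 ± 0.39, adjusted p = 0.00887), a call lost without the 3 libraries rich in ribosomal RNA. Mnx1 (−1.10), Scrt1 (−1.27) and St18 (−0.83) fell too. Hnf4a, a nuclear receptor, rose, with 52.2, 54.2 and 46.3 CPM in rIAPP and 32.4, 34.6 and 31.0 CPM in WT (0.65 ± 0.10). Without the 3 libraries rich in ribosomal RNA, 7 of the 20 were lower.

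Among corepressors of the Groucho family, which are recruited by NKX and other factors to silence genes, Tle4 and Tle3 moved in opposite directions and stood among the largest changes of the comparison. Tle4 had 171, 187 and 151 CPM in rIAPP and 13.1, 17.0 and 12 CPM in WT, 12.1-fold higher (3.69 ± 0.11, adjusted p = 2.93e-12). Tle3 had 26.3, 18.7 and 30.7 CPM in rIAPP and 164, 153 and 146 CPM in WT, or 16.3% of the WT mean (−2.59 ± 0.14, adjusted p = 9.52e-09). In each case the groups were far apart. Tle1 had 40.6, 40.1 and 46.7 CPM in rIAPP and 83.8, 105 and 66.0 CPM in WT (−0.95 ± 0.21, adjusted p = 0.00604), a call lost without the 3 libraries rich in ribosomal RNA. Tle2 (−0.37, adjusted p = 0.0966) and Tle6 (0.75, adjusted p = 0.139) did not pass the test. Tle4 in hIAPP islets was at 15.3, 14.4 and 12.7 CPM, and rIAPP was higher than hIAPP by 3.58 (adjusted p = 3.32e-13).

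Of 16 tested genes of endocrine progenitors and dedifferentiation, 5 were higher and 2 lower (median 0.40), with 2 higher without WT 3 and without the 3 libraries rich in ribosomal RNA. Neurog3, the factor that starts the endocrine lineage in the embryo, had 15.7, 24.2 and 20.7 CPM in rIAPP and 3.49, 2.52 and 2.33 CPM in WT (2.72 ± 0.23, adjusted p = 3.56e-07). Serpina7, the carrier of thyroxine in plasma, had 66.7, 78.9 and 58.7 CPM in rIAPP against 8.47, 11.3 and 6.21 CPM in WT (3.09 ± 0.30). Neither gene overlapped between the groups, and both were higher than in hIAPP islets, Neurog3 by 2.33 and Serpina7 by 1.41. Myc (1.38) and Notch1 (0.24) were higher, and Sox4 (−0.997) lower, with calls that were each lost without WT 3 and without the 3 libraries rich in ribosomal RNA. Npy, neuropeptide Y, had 10.6, 10.4 and 7.93 CPM in rIAPP and 54.0, 52.3 and 122 CPM in WT (−3.03 ± 0.41). Aldh1a3, a retinaldehyde dehydrogenase counted as a dedifferentiation marker, had 26.3, 53 and 33.8 CPM in rIAPP and 19.2, 4.41 and 9.09 CPM in WT (1.41 ± 0.43, adjusted p = 0.0376). That call was lost without WT 2, without WT 3, without rIAPP 2 or without rIAPP 3, and Aldh1a3 was 1.32 lower than in hIAPP islets (log2 fold change −1.32, adjusted p = 0.0426).

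Of 22 genes that mature beta cells keep low 7 were higher and 0 lower (median 0.53). Cxcl12, a chemokine, had 46.1, 53.9 and 60.6 CPM in rIAPP and 20.6, 25.8 and 25.1 CPM in WT (1.22 ± 0.16), and Pdgfra (2.52) and Cd302 (1.46) rose. The count was 4 without WT 1 and 1 without the 3 libraries rich in ribosomal RNA, where the median was 0.56. Against hIAPP the median of the list was 0.01. Pdgfra also marks the stromal cells described further on, whose list rose with it.

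**Figure D4:**
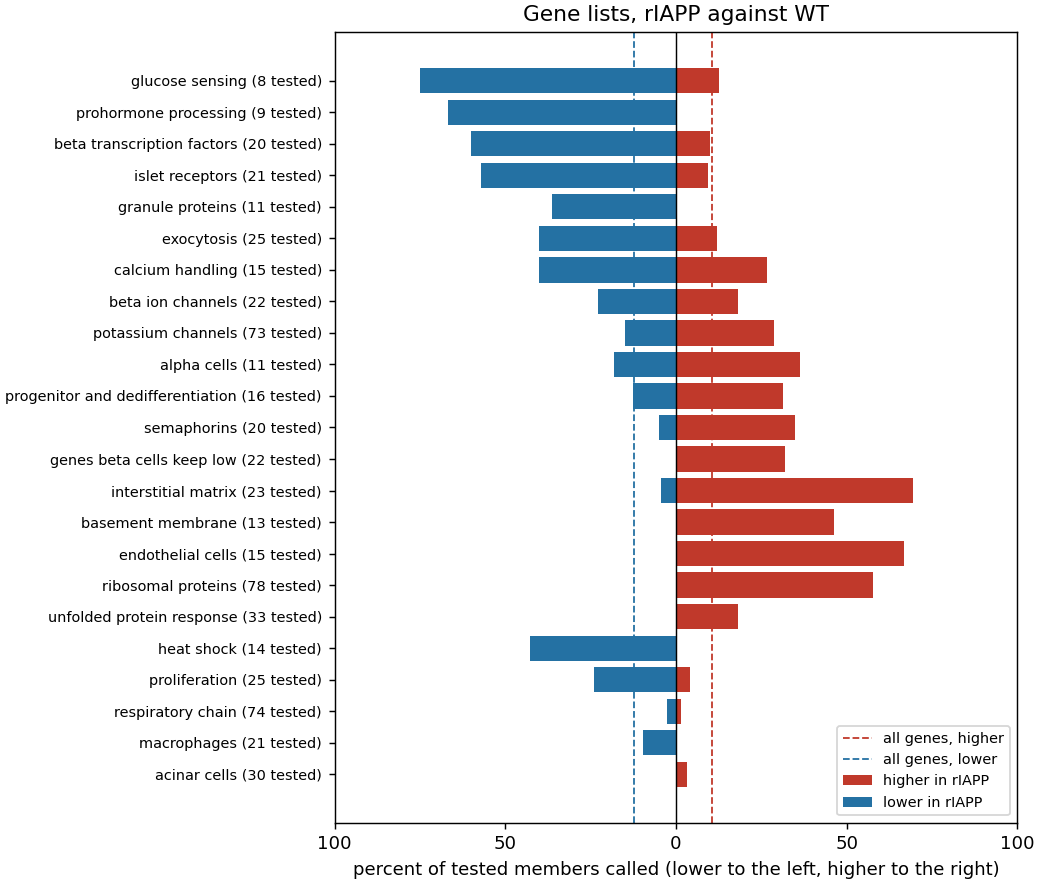
Bars give the percent of tested members of each list called higher (right) or lower (left) in rIAPP than in WT, and dashed lines the same over all genes tested (10.7% higher, 12.4% lower). Lists of beta-cell function extend left, 6 of 8 for glucose sensing, and matrix, endothelial and ribosomal protein lists extend right, 16 of 23 for interstitial matrix.

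Genes of alpha cells did not move as a block, with 4 of 11 higher and 2 lower (median 0.17), and 1 higher without WT 3. Gc, the vitamin D binding protein, which alpha cells express strongly, had 569, 604 and 506 CPM in rIAPP and 96.7, 105 and 78.2 CPM in WT, 6.01-fold higher (2.61 ± 0.13, adjusted p = 2.23e-09). Slc38a5, an amino acid transporter, had 69.7, 84.4 and 66.5 CPM in rIAPP and 17.3, 11.3 and 6.32 CPM in WT (2.53 ± 0.65, adjusted p = 0.0175, lost without WT 3 and without the 3 libraries rich in ribosomal RNA). Irx2 was 0.35 higher (adjusted p = 0.0485), a call lost under many alternatives. Ttr, transthyretin, was 0.43 lower (log2 fold change −0.43, adjusted p = 0.0175, lost without WT 1 or rIAPP 2), and Slc7a2, a transporter of basic amino acids, had 150, 115 and 170 CPM in rIAPP and 555, 602 and 569 CPM in WT (−1.98 ± 0.17). Gc thus rose while glucagon stayed close to its WT level.

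Most of the largest rises were in genes near 0 in WT islets, with 12 of the 20 largest under 1 CPM in every WT library. These 20, by the naming rule given with the methods, ran from a log2 fold change of 3.49 for Bcat1, a branched-chain aminotransferase, to 9.44 for Lrp1b. Lrp1b, a large receptor of the LDL receptor family, had 2.55, 4.58 and 1.90 CPM in rIAPP and 0 counts in all 3 WT libraries, against 195 counts in rIAPP. Set against a floor of 3 counts over the WT group, it was at least 36.1-fold higher. Thsd7b, a membrane protein with thrombospondin repeats, had 5.85, 5.54 and 5.22 CPM in rIAPP and 1 count in all WT libraries together, a ratio of pooled counts of 237 (95% counting interval 42.4 to 9395). That count lay in the shallow WT 2, so the ratio of mean CPM was 26.4, and without WT 2 the gene was at least 76.2-fold higher, set against 3 counts. The adhesion gene Cdh10 had 220 counts in rIAPP against 1 in WT, a ratio of 122 (21.7 to 4851). Gabra3, a subunit of GABA-A receptors, had 558 counts against 3, a ratio of 103 (35.2 to 503), and the channel subunit Cngb1 322 against 3, a ratio of 59.7 (20.2 to 291). These values lean on WT 1, the deepest WT library. Without it the ratio was 58.9 for Thsd7b, 25.7 for Gabra3 and 44.4 for Cngb1, and the bound against 3 counts was 8.97-fold for Lrp1b and 10.1-fold for Cdh10. These intervals and floors cover counting error only.

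Other rises started from a measurable WT level. Calb1, the calcium buffer calbindin, had 230, 278 and 215 CPM in rIAPP and 32.4, 34.0 and 34.7 CPM in WT (2.84 ± 0.14, adjusted p = 1.86e-09). Mapk4, an atypical kinase of the MAP kinase family, had 54.7, 53.7 and 51.1 CPM in rIAPP and 4.45, 3.15 and 4.88 CPM in WT (3.57 ± 0.17, adjusted p = 1.68e-09). Bmp3, a secreted factor of the TGF-beta family, had 66.9, 78.6 and 62.4 CPM in rIAPP and 6.01, 5.67 and 4.66 CPM in WT (3.64 ± 0.24), and Fat3, a large cadherin, 34.5, 39.2 and 40.3 CPM in rIAPP and 2.77, 2.52 and 2.99 CPM in WT (3.75 ± 0.42). In all of them the lowest rIAPP library stood far above the highest WT library. For Mapk4, Bmp3 and Fat3, which are among the 20, lack of overlap was required by the naming rule. Vstm2a (5.42), C1ql3 (6.32), Col8a2 (6.87), Opcml (5.73), Chst8 (4.76), Clmp (3.59), Pcp4l1 (3.71), Cidea (3.89), Fmod (3.78), Rarres1 (3.61) and Tle4 made up the rest of the 20, several of them encoding secreted or cell-surface proteins, while Calb1 ranked after them. The call of Rarres1 was lost without the 3 libraries rich in ribosomal RNA. Each of the 20 was also higher in rIAPP than in hIAPP islets. That comparison reuses the rIAPP libraries by which the 20 were chosen.

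**Figure D5:**
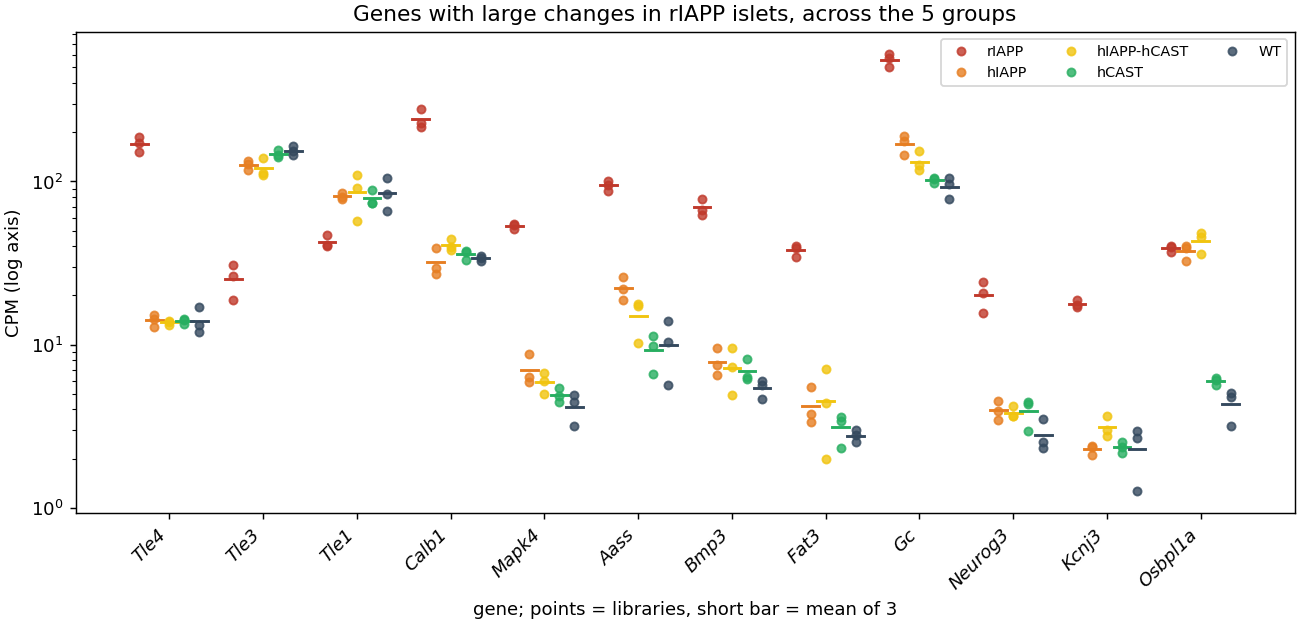
Points are the CPM of single libraries on a log axis for 12 genes, from left to right rIAPP, hIAPP, hIAPP-hCAST, hCAST and WT, and short bars are means of 3. For Tle4, Calb1, Mapk4, Bmp3 and Kcnj3 the rIAPP libraries stand apart from all other groups, whereas Osbpl1a is as high in hIAPP and hIAPP-hCAST as in rIAPP.

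The pattern over the 5 groups differed between genes. Calb1 had 27.2 to 39.2 CPM in hIAPP, 38.1 to 44.6 in hIAPP-hCAST, 33.0 to 37.4 in hCAST and 32.4 to 34.7 in WT, all far under the 215 to 278 CPM of rIAPP. Gc was graded, with 506 to 604 CPM in rIAPP, 146 to 189 in hIAPP, 117 to 154 in hIAPP-hCAST, 97.2 to 106 in hCAST and 78.2 to 105 in WT. Osbpl1a, an oxysterol binding protein, had 39.4, 40.1 and 37.0 CPM in rIAPP, 40.1, 39.3 and 32.3 CPM in hIAPP and 5.02, 3.15 and 4.77 CPM in WT. It rose against WT (3.01 ± 0.15, adjusted p = 1.68e-09), while rIAPP and hIAPP differed by 0.06 (adjusted p = 0.815), and hIAPP-hCAST had 45.4, 48.4 and 36.1 CPM and hCAST 6.24, 5.67 and 6.08 CPM.

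All 5 tested genes from Cped1 to Cadps2 on chromosome 6 (GRCm38, chr6:21985916-23839421, GENCODE M21) were called higher, while the 3 nearest tested genes on each side did not pass the test. Aass, the first enzyme of lysine breakdown, had 87.5, 101 and 95.1 CPM in rIAPP and 10.4, 13.9 and 5.65 CPM in WT (3.38 ± 0.30, adjusted p = 6.51e-06). The genes Cped1 (2.72), Fam3c (0.29), Ptprz1 (2.23) and Cadps2 (0.93), which lie on either side of it, were the others. Fam3c lost its call without WT 1, without rIAPP 2 and without the 3 libraries rich in ribosomal RNA. Ptprz1 encodes a receptor phosphatase and Fam3c a secreted protein. These genes were picked for their position after their values were seen, and on chromosome 6 as a whole 12.2% of tested genes were higher, against 10.7% over all genes.

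The 20 largest falls ran from −2.38 for Prss53 to −5.36 for Myo3a, an unconventional myosin with 0.0823, 0.107 and 0.0322 CPM in rIAPP and 2.21, 1.89 and 4.10 CPM in WT. Slc14a2, a urea transporter, had 1.15, 1.07 and 2.29 CPM in rIAPP and 37.9, 25.8 and 72.7 CPM in WT (−4.92 ± 0.45, adjusted p = 1.33e-05). Angptl7, a secreted angiopoietin-like protein, had 2.94, 0.746 and 3.87 CPM in rIAPP and 49.1, 34.0 and 35.4 CPM in WT (−3.82 ± 0.48). These genes were near 0 in rIAPP islets. Lack of overlap with WT was required by the rule that chose the 20. Nnat, neuronatin, an imprinted gene whose protein aids signal peptide cleavage of preproinsulin, had 24.9, 23.1 and 28.6 CPM in rIAPP and 184, 166 and 169 CPM in WT (−2.75 ± 0.15, adjusted p = 1.17e-08). Gad1, the enzyme that makes GABA, had 22.1, 10.8 and 19.3 CPM in rIAPP and 134, 86.9 and 118 CPM in WT (−2.68 ± 0.25), and Limch1, an activator of non-muscle myosin, 15.7, 16 and 19.5 CPM in rIAPP and 94.2, 107 and 85.9 CPM in WT (−2.46 ± 0.15). The channel genes Mcoln3 (−3.78), Kcng3 (−2.88) and Scnn1g (−2.87), the quinone reductase Nqo1 (−2.60), Adam32 (−3.02), Tex15 (−2.53), Cnnm1 (−2.50), Fcgbp (−2.64) and the TNF receptor family member Tnfrsf9 (−2.41) were the others beside those described above. Against hIAPP islets, Myo3a, Angptl7, Nnat, Gad1 and Limch1 were also called lower. Npy (−0.61, adjusted p = 0.406) and Fcgbp (−0.97, adjusted p = 0.109) did not pass the edgeR test there.

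Transmitter genes showed opposite moves within pathways. Maob, monoamine oxidase B, which degrades dopamine and other amines, had 43.7, 36.9 and 46.1 CPM in rIAPP and 180, 170 and 189 CPM in WT (−2.09 ± 0.11, adjusted p = 2.23e-09). Ddc, the decarboxylase that makes dopamine and serotonin, fell by 0.80, while Fev, a factor of serotonin cells, rose from a low WT level (1.83 ± 0.34); of 8 serotonin genes 1 was higher and 2 lower. Of 12 GABA-A receptor subunits 2 were higher, Gabra3 and Gabrq (2.80). Of 14 ionotropic glutamate receptor subunits, Grin2c rose (2.23), with 31.0, 35.9 and 32.4 CPM in rIAPP and 6.26, 5.04 and 8.76 CPM in WT, Gria3 rose (0.56) and Grin1, the obligate subunit of NMDA receptors, fell (−1.09). Semaphorins, guidance cues for axons and vessels, had 7 of 20 higher and 1 lower (median 0.36), among them Sema3c (2.05), Sema3e (1.57), Sema4g (1.39) and Sema3g (1.08), with 4 higher without rIAPP 1.

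Of 23 genes of interstitial matrix, made by stellate cells and fibroblasts, 16 were higher and 1 lower (median 1.32). Over all genes tested the shares were 10.7% higher and 12.4% lower. Against hIAPP islets 0 of the 23 were higher and 4 lower, with a median of −0.26. Col1a2, a chain of type I collagen, had 264, 235 and 225 CPM in rIAPP and 45.8, 68.6 and 79.5 CPM in WT (1.94 ± 0.37, adjusted p = 0.00346). The crosslinking enzymes moved apart, with Lox (2.77) and Loxl1 (1.37) higher and Loxl2 lower (−0.83, at 12.4, 10.4 and 13.0 CPM in rIAPP and 19.9, 27.7 and 20.7 CPM in WT). Pdgfrb (0.68) and Sparc (0.71) rose, and 6 of 13 basement membrane genes did, Lama5 most (1.47) and Col4a2 by 0.71. The matrix list took 0.207 to 0.228% of the other counts in rIAPP and 0.0661 to 0.110% in WT (exact two-sided permutation test, p = 0.1). Without WT 1, 4 of the 23 matrix genes were called higher (Lox was among those lost), 7 without the 3 libraries rich in ribosomal RNA and 9 with acinar share as a covariate, and 13 with hCAST in place of WT.

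Of 15 endothelial genes, 10 were higher and 0 lower (median 0.47), with Eng (0.71), Tek (0.66), Pecam1 (0.58) and Plvap (0.53). Plvap, the protein of endothelial diaphragms, had 344, 337 and 331 CPM in rIAPP and 225, 205 and 266 CPM in WT. Without WT 1 the count was 4 (Tek and Pecam1 were among those lost), without rIAPP 1 it was 6, and with hCAST in place of WT it was 12. The endothelial list took 0.132 to 0.142% of the other counts in rIAPP and 0.0879 to 0.115% in WT (exact two-sided permutation test, p = 0.1).

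All 30 acinar genes had a positive log2 fold change (median 1.37), but just 1 was called, Bhlha15, the acinar factor MIST1, with 58.9, 68.3 and 61.2 CPM in rIAPP and 33.8, 29.6 and 28.7 CPM in WT (1.01 ± 0.17). The acinar share varied widely between libraries of a group, and its median difference was 0.54 without the 3 libraries rich in ribosomal RNA. Of 10 duct genes 3 were higher and 1 lower (median 0.24). The duct list took 0.0684 to 0.0726% of the other counts in rIAPP and 0.0470 to 0.0517% in WT. Krt18 (0.80) and Krt8 (0.56) were among those higher. Krt19, the usual duct marker, was the 1 lower (−1.03, at 2.09 to 3.09 CPM in rIAPP and 2.52 to 6.07 CPM in WT, overlapping and lost without WT 1). With acinar share as a covariate, 1238 of the 1664 rises and 1512 of the 1935 falls remained called, and 12 of the 20 beta-cell transcription factors were lower.

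Ribosomal protein genes shifted by small amounts, with 45 of 78 higher and 0 lower (median 0.31). Rpl10a had 101, 98.6 and 101 CPM in rIAPP and 82.7, 68.0 and 70.8 CPM in WT (0.42 ± 0.08), and Rps10 167, 163 and 155 CPM against 137, 122 and 123 CPM (0.34 ± 0.06). The count was 4 with hCAST in place of WT (median 0.09), 4 without the 3 libraries rich in ribosomal RNA (median 0.17) and 27 without WT 3. The list took 1.61 to 1.68% of the other counts in rIAPP and 1.16 to 1.37% in WT, lowest in WT 2.

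Of 33 genes of the unfolded protein response 6 were higher and 0 lower (median 0.26). Eif2ak3, the kinase PERK, had 134, 139 and 129 CPM in rIAPP and 88.2, 69.3 and 86.9 CPM in WT (0.68 ± 0.12), and Sesn2 (0.75) and Trib3 (1.16) rose. Without the 3 libraries rich in ribosomal RNA 0 were called, and 3 without WT 3, while upper quartile scaling and DESeq2 called 10. Of 14 heat shock chaperones 6 were lower and 0 higher (median −0.24), and the 8 that did not pass the test included 6 with a positive log2 fold change. Among those lower were Hspa8, at 765, 773 and 642 CPM in rIAPP and 1010, 1370 and 1042 CPM in WT (−0.65 ± 0.12), and Hsp90ab1 (−0.65). Of 20 immediate-early genes 4 were higher, Egr2 (1.85), Nr4a2 (1.02) and Ier3 (0.94) among them, with 1 left without WT 1.

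Proliferation genes were lower in 6 of 25 and higher in 1 (median −0.70). The count of falls moved with the libraries used, with 0 and 1 rise without the 3 libraries rich in ribosomal RNA, 3 without WT 1 or without rIAPP 1, and 13 with hCAST in place of WT. Mki67, a marker of cycling cells, had 5.38, 4.90 and 5.35 CPM in rIAPP and 9.44, 15.7 and 9.42 CPM in WT (−0.97 ± 0.26), and Top2a 3.54, 3.09 and 3.96 CPM against 7.82, 15.1 and 7.98 CPM (−1.29 ± 0.34). Both were separate from WT, with WT 2 the highest. Mcm2, a subunit of the replicative helicase, rose (0.65). Against hIAPP 14 of the 25 were lower.

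Of 21 macrophage genes, with log2 fold changes from −1.16 to 1.49, 0 were higher and 2 lower. That share, 9.52%, lay under the 12.4% of all genes tested that were lower. The 2 were C1qa, a complement chain, with 30.8, 26.1 and 39.7 CPM in rIAPP and 87.1, 46.6 and 72.8 CPM in WT (−1.16 ± 0.20, adjusted p = 0.000828), and Fcer1g (−0.74, adjusted p = 0.0139, lost without WT 3 or rIAPP 1). The list took 0.0162 to 0.0220% of the other counts in rIAPP and 0.0167 to 0.0256% in WT (exact two-sided permutation test, p = 0.4). Against hIAPP, 17 of the 21 were lower in rIAPP, with a median log2 fold change of −1.79. Interferon and antigen presentation genes had 5 of 28 higher and 2 lower, 25% called beside 23.1% of all genes tested. Of these, Usp18, a brake on interferon signalling, had 12.6, 9.91 and 13.4 CPM in rIAPP and 46.8, 42.8 and 39.9 CPM in WT (−1.83 ± 0.20).

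The counts of 0 above are from edgeR's quasi-likelihood test. At an unadjusted p below 0.05 there were also 0 rises among prohormone processing, granule and heat shock genes and 0 falls among the genes kept low and the ribosomal protein, immediate-early, basement membrane, endothelial and acinar genes. DESeq2 and limma-voom likewise called 0, except for 1 immediate-early gene lower by DESeq2. For the unfolded protein response 2 members were lower at an unadjusted p below 0.05 (1 called by DESeq2, 2 by limma-voom), and 1 macrophage gene was higher (0 by both tools).

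Called falls were commoner among long and among highly expressed genes. Over 5 groups of equal size by counted length, the share of genes called lower was 5.87% among the shortest and 24.1% among the longest, while the share called higher stayed between 9.30 and 11.2%. The same shares of falls against hIAPP, which do not involve WT, were 5.58 and 9.94%, and with hCAST in place of WT 7.44 and 17.8%. Over 5 such groups by mean CPM, falls made up 3.05% of the lowest and 28.9% of the highest, and rises 6.99 to 14.6%. Falls against hIAPP made up 7.02% of the lowest and 10.9% of the highest, and with hCAST in place of WT 4.84 and 23.9%. On the X chromosome 19.3% of 544 tested genes were lower, against 8.32 to 15.3% on the other chromosomes.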

How the data were processed

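RNA-seq of bulk islets was taken from the deposited tables of 15 libraries, each column matched to its library by title (0 columns unused). The authors deposited raw read counts, whole numbers, for each gene symbol. STAR and HTSeq and the builds GRCm38 and mm10 (names of the same assembly) come per the submitters' processing notes. Tool versions, the annotation and the strand setting are not given in the sources used here, so overlapping, antisense and near-identical genes are uncertain. Per the labels' protocols, RNA came from the RNeasy Mini Kit and libraries from TruSeq with Ribo-Zero and NuGEN Ovation. The deposited FPKM table (per gene length and per column total, by the authors, from the ratio of both tables) served as an alternative.

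The 3 entries Rn45s, Lars2 and Mir6236 were left out before scaling. Counts were fitted in edgeR 4.0.16 (R 4.3.3) with TMM scaling, its filter on low counts by group, robust quasi-likelihood dispersions and a coefficient for each group in a fit of all 15 libraries, and rIAPP was contrasted with WT, hIAPP and hCAST. Comparisons with WT share the WT libraries, and those of rIAPP share the rIAPP libraries. P-values were adjusted by Benjamini-Hochberg over all genes tested, with a threshold of 0.05. The SE is the log2 fold change divided by the square root of F. The common biological coefficient of variation was 0.128. On simulated counts for this comparison (15443 genes), 62% of genes changed by a log2 of 1 and 92% of those changed by 2 were called, and 0.0328% of unchanged genes. In the simulation 200 genes were changed, and all groups otherwise shared a mean for each gene. In the data 3599 genes were called, so these shares need not hold there.

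Gene lists, 60 in all, were described by counts and medians with no set test. Each count against WT stands beside shares of 10.7% higher and 12.4% lower over all genes tested. The members of the comparison and the lists were chosen with earlier results of these data known. Named genes are Iapp, Cast and the islet hormones, the 20 largest rises and 20 largest falls (called, without overlap between groups, and averaging 1 CPM or more over the 6 libraries, leaving out predicted genes and small RNAs), and up to 6 members of each list described, by p. Calb1, Mafa, Osbpl1a, Aass, Cped1, Ptprz1, Fam3c, Tle1, Tle2 and Tle6 fall outside that rule and were chosen after their values were seen. Some genes that the rule names are not reported here. Shares of counts were tested by exact two-sided permutation over libraries. Alternatives used DESeq2 1.42.0 and limma 3.58.1. Replicate numbers follow accession order and pair no libraries.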

Additional observations from a re-analysis of the deposited data

Results flagged for a closer look

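Called differences from WT ran in opposite directions in rIAPP and hIAPP for 13 genes, 3 higher in rIAPP and lower in hIAPP and 10 the reverse. Both comparisons share the WT libraries, and the contrast of rIAPP with hIAPP, in which WT cancels, tests the difference. Of the genes named here, 4 met this. Vgf, a granin-like precursor, had 6.81, 5.97 and 7.51 CPM in rIAPP, 38.0, 39.7 and 48.4 CPM in hIAPP and 19.3, 15.7 and 23.6 CPM in WT, and differed from hIAPP by a log2 of −2.61 (adjusted p = 8.84e-10). Sema5a, a semaphorin, had 7.49, 5.76 and 8.35 CPM in rIAPP, 776, 760 and 766 CPM in hIAPP and 16, 24.6 and 17.3 CPM in WT, and the difference from hIAPP was −6.69 (adjusted p = 9.05e-15). C1qa, a complement chain of macrophages, had 30.8, 26.1 and 39.7 CPM in rIAPP, 111, 131 and 97.5 CPM in hIAPP and 87.1, 46.6 and 72.8 CPM in WT, with a difference from hIAPP of −1.79. Fcer1g, a signalling chain of Fc receptors, was at 3.43, 3.09 and 4.19 CPM in rIAPP, 9.52, 9.91 and 10.3 CPM in hIAPP and 4.67, 5.67 and 8.31 CPM in WT, with a difference from hIAPP of −1.44 (adjusted p = 3.01e-05). The rises of hIAPP over WT were nearer the threshold for C1qa (edgeR, adjusted p = 0.0487) and Fcer1g (adjusted p = 0.0259). The call of Fcer1g in rIAPP against WT was lost without WT 3 or rIAPP 1.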

How the results depend on the processing

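The count of genes called against WT stayed within 1.5 times the 3599 reported under relative log expression scaling, upper quartile scaling, TMM without hormone and acinar genes, the ribosomal-rich entries kept, no filter, a filter at 1 CPM in 3 libraries, only the 6 libraries, DESeq2 (3721), limma-voom (4235), acinar share as a covariate (3374) and hCAST in place of WT (3495). Leaving out single libraries gave 2632 to 3387 genes (1194 to 1500 higher, 1416 to 1887 lower). Without WT 2, WT 3 and rIAPP 2 it was 1462 (651 higher, 811 lower), where WT is a lone library and fewer libraries are tested. Deposited log2 FPKM plus 1 gave 847 (843 higher, 4 lower) and plus 0.1 gave 762 (758 higher, 4 lower), where the median of all genes lay at 0.80 and 1.27. Rescaled FPKM gave 848 lower, and FPKM centred at the median gene, chosen after seeing the data, gave 1372, of which 778 were higher and the others lower. Against hIAPP, only the 6 libraries gave 1300 higher, and leaving out single libraries gave 1286 to 1725 (542 to 662 higher, 744 to 1067 lower). Of 170 genes named, calls were lost for 35 without WT 2, WT 3 and rIAPP 2, 15 without WT 1, 9 with acinar share as a covariate, 9 with hCAST in place of WT and 9 with rescaled FPKM. Calls were also lost with the sign kept for 70 with log2 FPKM plus 1, 70 with plus 0.1 and 57 with centred FPKM. The sign changed for 0 under every alternative but the 3 unrescaled FPKM fits, in which none of the genes with a changed sign was called. With log2 FPKM plus 1 the sign of 42 called genes changed, with values, before subtracting the shift of 0.80, of Ins2 0.12, Sst 1.14, Pdx1 0.20, Nkx6-1 0.49, Mnx1 0.13, St18 0.49, Pcsk2 0.57, Pcsk1n 1.13, Slc30a8 0.19, Scg2 0.41, Scg3 0.68, Pcx 0.25, Pfkfb2 0.17, Gipr 0.27, Abcc8 0.23, Kcnj11 0.41, Kcnma1 0.69, Cadps 0.068, Cplx2 0.71, Rims2 0.74, Atp2a2 0.36, Atp2a3 0.54, Stim2 0.59, Sox4 0.33, Ttr 1.02, Ddc 0.58, Grin1 0.18, Loxl2 0.19, Krt19 0.044, Hspa8 0.79, Hsp90ab1 0.81, Mki67 0.022, C1qa 0.26, Fcer1g 0.35, Cdh1 0.98, Tle1 0.19, Peg3 0.45, Lamp1 0.96, Lamp2 0.74, Ctsl 0.91, Kdm5d 0.44 and Uty 0.62. With FPKM plus 0.1, before subtracting 1.27, it changed for 43, with Ins2 0.12, Sst 1.14, Pdx1 0.23, Nkx6-1 0.52, Mnx1 0.27, Scrt1 0.057, St18 0.59, Pcsk2 0.57, Pcsk1n 1.16, Slc30a8 0.20, Scg2 0.41, Scg3 0.68, Pcx 0.34, Pfkfb2 0.29, Gipr 0.34, Abcc8 0.25, Kcnj11 0.49, Kcnma1 0.93, Cadps 0.14, Cplx2 0.77, Rims2 0.997, Atp2a2 0.37, Atp2a3 0.55, Stim2 0.76, Sox4 0.41, Ttr 1.03, Ddc 0.64, Grin1 0.30, Loxl2 0.44, Krt19 0.47, Hspa8 0.80, Hsp90ab1 0.82, Mki67 0.18, C1qa 0.36, Fcer1g 0.61, Cdh1 1.05, Tle1 0.41, Peg3 0.47, Lamp1 0.98, Lamp2 0.80, Ctsl 0.95, Kdm5d 0.74 and Uty 0.90. With centred FPKM it changed for 17, with Sst 0.29, Pcsk1n 0.28, Ryr2 −0.70, Ryr3 −0.65, Ttr 0.17, Gabrq −0.61, Gria3 −0.045, Lrp1b −0.68, Thsd7b −0.14, Cdh10 −0.17, Cngb1 −0.32, Sema4g −0.039, Lox −0.034, Egr2 −0.34, Cdh1 0.13, Lamp1 0.11 and Ctsl 0.053. The FPKM values divide by totals that hold the ribosomal-rich reads. In the centred fit, the median of each library was subtracted after taking log2 FPKM plus 1. A gene at 0 in a library therefore takes minus the median of that library, as Lrp1b does in WT (0 counts, against 195 in rIAPP). For genes near 0 in WT the sign in that fit thus says little about direction. No paired analysis was possible because replicate numbers follow accession order and the title numbers are not shared between groups. Depth limits WT 2 most, where a floor of 3 counts is 1.89 CPM, against 0.0823 to 0.320 CPM in rIAPP.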

Other observations

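Imprinted genes, expressed from 1 parental copy, were lower in 6 of 17 and higher in 2 (median log2 fold change −0.30), with 1 lower without WT 2, WT 3 and rIAPP 2. Beside Nnat, Peg3, a zinc finger gene, had 924, 850 and 967 CPM in rIAPP and 1955, 1769 and 1653 CPM in WT (−0.97 ± 0.20, adjusted p = 0.0032), a call lost without those 3 libraries. Grb10, an adaptor that restrains insulin and IGF receptor signalling, went up, with 118, 119 and 111 CPM in rIAPP and 60.9, 66.1 and 67.4 CPM in WT (0.84 ± 0.14). Of 24 lysosome and autophagy genes, 5 were lower and 0 higher by edgeR (2 higher at an unadjusted p below 0.05, 1 by DESeq2 and 1 by limma-voom), including the membrane proteins Lamp1 (−0.45) and Lamp2 (−0.63) and the protease Ctsl (−0.49), and 10 were lower with hCAST in place of WT. Against hIAPP 14 of the 24 were lower. Cdh1, E-cadherin, which binds epithelial cells to each other, averaged 293 CPM in rIAPP and 384 CPM in WT, without overlap (−0.39 ± 0.08), a call lost without WT 2, WT 3 and rIAPP 2.

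Of 74 nuclear genes of the respiratory chain 1 was higher and 2 lower (median 0.04), and of 19 glycolysis genes 2 were higher and 3 lower (median 0.07). The Y-linked genes Kdm5d, with 35.0, 31.6 and 27.4 CPM in rIAPP and 48.3, 50.4 and 46.8 CPM in WT (−0.62 ± 0.11), and Uty, with 56.9, 57.2 and 53.6 CPM in rIAPP and 75.8, 68.0 and 94.3 CPM in WT (−0.53 ± 0.09), were lower. Ddx3y, also Y-linked, had 109, 114 and 115 CPM in rIAPP and 119, 116 and 111 CPM in WT and overlapped. Sema4a (0.46) was the other semaphorin called higher among those with the smallest p-values, a call lost without rIAPP 1, without WT 2, WT 3 and rIAPP 2, and with hCAST in place of WT.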
